A study of Bos taurus with 6 samples.

Results

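Heat shock chaperones are proteins that help other proteins to fold, hold them when they unfold and pass them on for refolding or breakdown. HSP70 proteins bind short exposed stretches of a client protein in a cycle driven by ATP, J-domain proteins bring the clients and start that cycle, nucleotide exchange factors end it, and HSP90 proteins take over clients that are nearly folded, among them many kinases and steroid receptors. HSPD1 and HSPE1 form the folding chamber of mitochondria, and small heat shock proteins hold unfolding proteins without ATP. HSF1 is the transcription factor that switches on the inducible chaperones after heat and other protein damage, and pluripotent stem cells are known for high chaperone levels without such damage.

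The 10 genes described are HSPA1A, HSPA8, HSPH1, DNAJB1, HSP90AA1, HSP90AB1, HSPD1, HSPE1, HSPB1 and HSF1. They were chosen by symbol as the classical cytosolic and mitochondrial chaperones together with their main regulator. The rule uses no measured value, but the choice was made with earlier results of these data known. Each gene matched 1 gene of the 19163 in the count table. All 10 passed the filter on low counts, which left 13001 genes tested, and each had between 728 and 161853 counts in every library.

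The cells were F7, a bovine embryonic stem cell (bESC) line made from in vitro fertilized Holstein Friesian embryos, so the data describe 1 line. MC-F7 cells were grown on mouse embryonic fibroblasts (MEFs) treated with mitomycin C, which stops division and leaves the feeder cells alive, and their medium was renewed each day. MT-F7 cells were grown on MEFs fixed with methanol, which kills them, and their medium was renewed on alternate days, so the feeder layer and the feeding interval cannot be told apart. All 6 libraries, 3 in each group, came from cells with 15 passages given in the deposited design, in the same basal medium with fibroblast growth factor and the WNT inhibitor IWR1, and RNA was taken from cells that stayed afloat on gelatin. Nothing states that the 3 libraries of a group were separate cultures. The paper describes its data in general as means over 3 or more technical replicates, without naming the RNA-seq libraries. SDs and p values therefore cover only the spread between these libraries, which may be technical. In bulk RNA, fewer cells expressing a gene and less RNA per cell cannot be told apart. The authors reported that a larger share of reads aligned in MT-F7 than in MC-F7, and proposed less feeder cell contamination as the reason. Mouse feeder RNA counted on bovine genes cannot be told from bovine RNA here, and its amount was not tested.

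Each library held 21958386 to 24933430 counts on genes. Library 3 stood apart in both groups: mitochondrial genome genes made up 28.3% of the MC-F7 library 3 counts and 27.9% of those of MT-F7 library 3, against 16.3% to 23.2% in the other 4 libraries. Of 9 genes listed as markers of pluripotent cells, 7 were in the count table, and their summed level was 1364 to 2034 CPM (counts per 1000000 counts, TMM-normalized) in MC-F7 and 750.2 to 862 CPM in MT-F7, with 0 of the 7 higher, 5 lower and none at 0 in all libraries. The 13 fibroblast markers summed to 267 to 342 CPM in MC-F7 and 451 to 487 CPM in MT-F7, and of the 12 tested 5 were higher, 1 was lower and none was at 0 in all libraries. Over all genes tested 11.9% were higher and 11.3% lower. Most of the pluripotent sum came from POU5F1 and DNMT3B, both called lower. COL1A1, which was not called, gave most of the fibroblast sum, at 170 to 231 CPM in MC-F7 and 256 to 286 CPM in MT-F7. The part of either marker list in the chaperone values was not tested.

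HSPA1A, the stress-inducible cytosolic HSP70, was the 1 member that passed the test between the groups. It was measured at 736, 622 and 497 CPM in MC-F7 libraries 1, 2 and 3. In MT-F7 it was measured at 416, 391 and 369.9 CPM. Every MT-F7 library was below every MC-F7 library, and the MC-F7 libraries were spread more widely. The mean fell from 618 ± 119 to 392 ± 23.2 CPM (SD, n = 3), which is 1.57-fold lower (95% interval 1.22-fold to 2.04-fold), a log2 fold change of -0.66 with SE 0.172 (edgeR quasi-likelihood test, adjusted p = 0.0150). Over all genes tested, 23.2% passed this test, 11.3% as lower and 11.9% as higher in MT-F7, so 1 of 10 members, with 1 lower and 0 higher, is not above the background. Groups that did not overlap were also common, at 40% of all genes (19.9% higher and 20.1% lower in MT-F7), against 1 of 10 members. The HSPA1A call was close to the threshold. The adjusted p was 0.051 without MC-F7 library 1, 0.065 without MC-F7 library 2 and 0.055 without MT-F7 library 2. The log2 fold changes were -0.51, -0.65 and -0.65. Limma on the deposited TPM values gave adjusted p of 0.091 to 0.14 in 4 fits. The 0.091 came from values rescaled to the same total per library, and the others from values without such scaling. DESeq2 gave adjusted p = 0.0014 and edgeR's likelihood ratio test gave 0.0020. With both libraries numbered 3 left out the log2 fold change was -0.73 (adjusted p = 7.2e-04). Its near-identical copy HSPA1B was not found by symbol in the count table. Reads of the pair may have been split or joined in counting, so the HSPA1A values are uncertain to that extent.

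**Figure D1:**
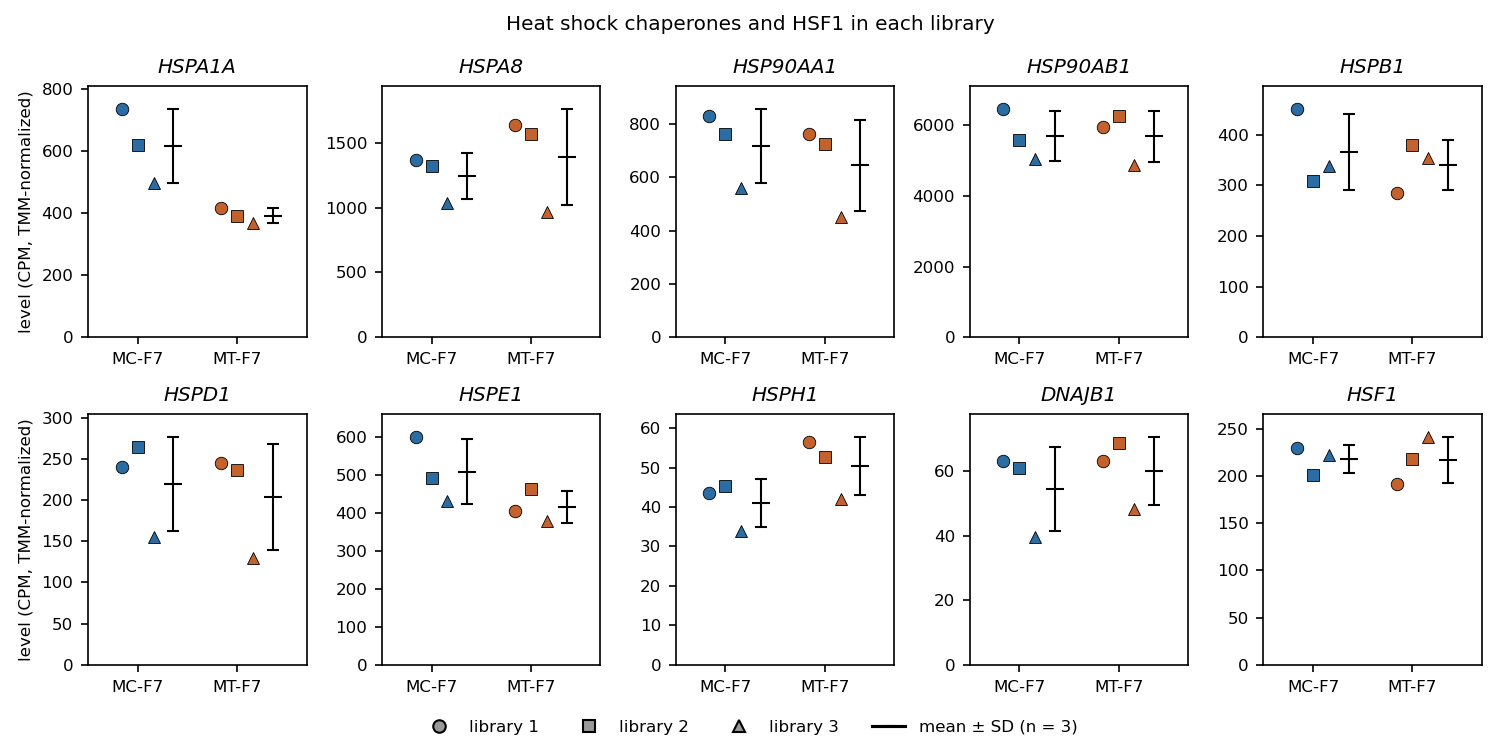
Level of each of the 10 members in TMM-normalized CPM (vertical axes, each from 0) in the 3 MC-F7 libraries (blue) and the 3 MT-F7 libraries (orange), with circles, squares and triangles for libraries 1, 2 and 3 and black marks for the mean ± SD (n = 3). In HSPA1A alone the groups do not overlap, with 497 to 736 CPM in MC-F7 and 369.9 to 416 CPM in MT-F7, and the triangle is the lowest point of both groups in 8 of the 10 panels.

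HSPA8, the constitutive HSP70 that folds new proteins in the cytosol of unstressed cells, was measured at 1368, 1320.2 and 1040.3 CPM in MC-F7. The MT-F7 libraries gave 1642, 1572 and 967 CPM, so libraries 1 and 2 of MT-F7 were the highest of all and library 3 of MT-F7 was the lowest. The log2 fold change was 0.17 (SE 0.214, 95% interval -0.30 to 0.63, adjusted p = 0.62 by the edgeR quasi-likelihood test). HSPH1, an HSP110 protein that releases ADP from HSP70 and so lets it let go of its client, was at 43.6, 45.3 and 34.0 CPM in MC-F7 and at 56.4, 52.7 and 42.1 CPM in MT-F7. Its groups overlapped only through MT-F7 library 3, and its log2 fold change of 0.30 (interval -0.071 to 0.67) had the lowest adjusted p of the members not called, 0.234. DNAJB1, the J-domain partner that stimulates the ATPase of HSP70, was at 63.2, 61.0 and 39.6 CPM in MC-F7 and at 63.3, 68.9 and 48.4 CPM in MT-F7. Its groups overlapped, with a log2 fold change of 0.14 (interval -0.29 to 0.57, adjusted p = 0.655).

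HSP90AB1, the constitutive cytosolic HSP90, was the most abundant member and took 57.8% to 62.0% of all counts on the 10 genes. Its level was 6462, 5585 and 5035 CPM in MC-F7 and 5942, 6251 and 4865 CPM in MT-F7, with overlapping groups. The group means were 5694 ± 719.9 and 5686 ± 728 CPM (SD, n = 3), with a log2 fold change of -0.0020 (interval -0.42 to 0.41, adjusted p = 0.995). HSP90AA1, the inducible HSP90, was at 830.1, 761 and 561 CPM in MC-F7. In MT-F7 it was at 762, 726 and 449.65 CPM. Libraries 1 and 2 of both groups lay close together and library 3 was the lowest of each, and the log2 fold change was -0.15 (interval -0.62 to 0.32, adjusted p = 0.66).

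The mitochondrial chaperonin is built from HSPD1, which forms the ring, and HSPE1, which forms its lid. In the RefSeq annotation (ARS-UCD2.0) their genes are neighbours on 1 chromosome with 0 genes between them. HSPD1 was at 240.3, 264 and 155 CPM in MC-F7 and at 245, 236 and 129 CPM in MT-F7, and its log2 fold change was -0.11 (interval -0.65 to 0.42, adjusted p = 0.788). HSPE1 was at 602, 492 and 433 CPM in MC-F7 and at 406, 463 and 380.3 CPM in MT-F7. Only MT-F7 library 2 reached into the MC-F7 range, and the log2 fold change of HSPE1 was -0.29 (interval -0.65 to 0.077, adjusted p = 0.245).

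HSPB1, a small heat shock protein that also binds actin filaments, was at 451, 309 and 338 CPM in MC-F7 and at 286, 381 and 353 CPM in MT-F7. The groups overlapped, with a log2 fold change of -0.11 (interval -0.50 to 0.29, adjusted p = 0.715). HSF1 itself was at 230.1, 201 and 223 CPM in MC-F7 and at 192, 218 and 241 CPM in MT-F7. Its group means were 218 ± 15.0 and 217 ± 24.8 CPM (SD, n = 3), and its log2 fold change was -0.0068 (interval -0.33 to 0.32, adjusted p = 0.98). RNA level does not measure the activity of HSF1, which is set by its release from chaperones, trimer formation and phosphorylation.

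The intervals of the 9 members not called ran from a log2 fold change of -0.65 to one of 0.67, so for each of them a difference of more than about 1.59-fold in either direction lay outside its 95% interval, and smaller differences are not excluded by these intervals. Of the 10 members 3 had a higher and 7 a lower fitted level in MT-F7, a split that another scaling changes, since HSP90AB1 and HSF1 turned to 0.017 and 0.0082 when libraries were scaled by size only. Of the 10, 0 were higher and 1 lower by unadjusted p under 0.05, against 18.2% and 17.6% of all genes. DESeq2 called 0 higher and 1 lower, against 13.4% and 12.7% of all genes. The median log2 fold change was -0.057 over the members and -0.0026 over all genes tested.

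**Figure D2:**
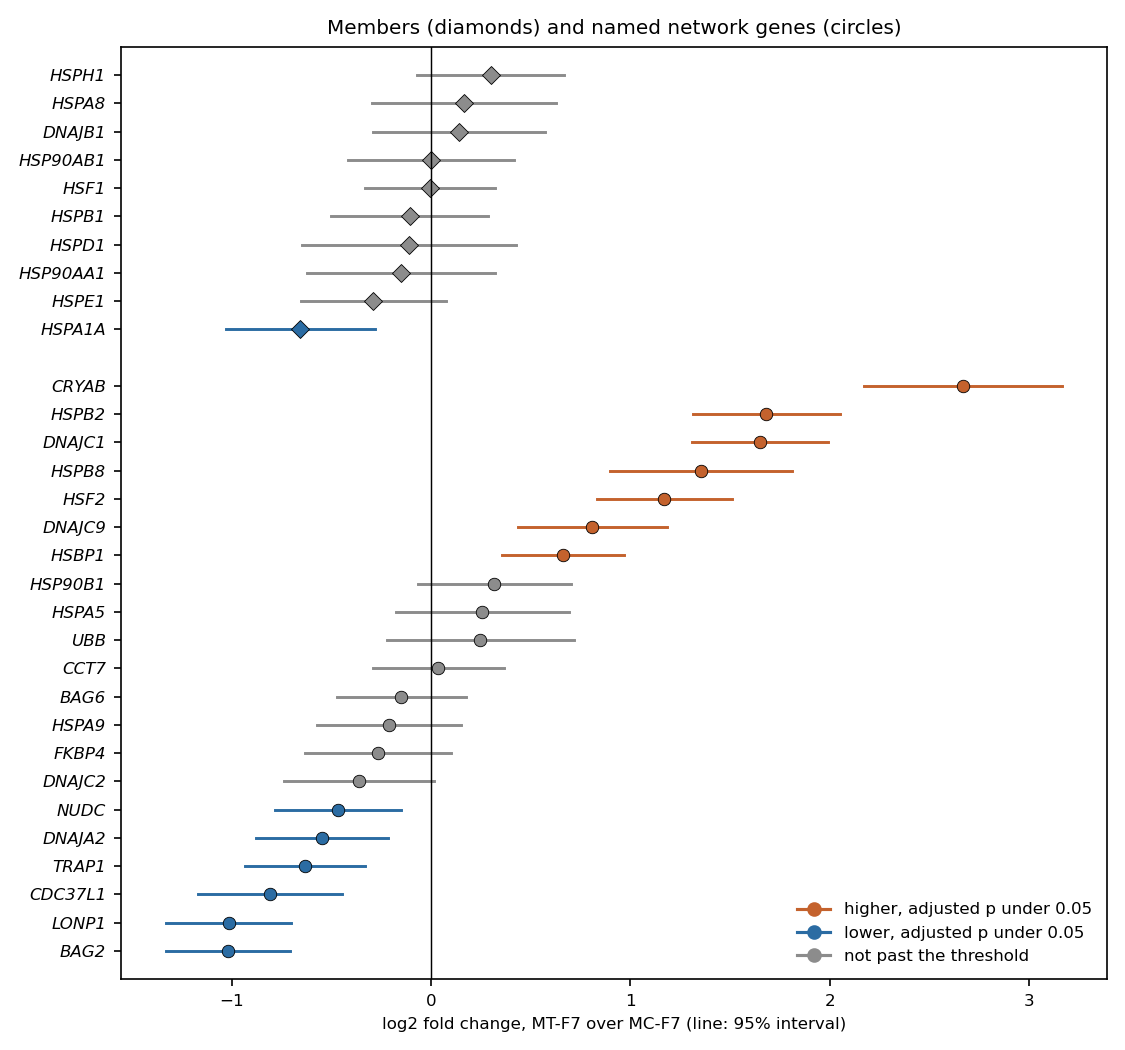
Log2 fold change of MT-F7 over MC-F7 (horizontal axis, log2 scale) with its 95% interval as a line, for the 10 members (diamonds, upper block) and the named genes of the chaperone network (circles, lower block), coloured by the edgeR quasi-likelihood test at an adjusted p under 0.05. HSPA1A at -0.66 is the 1 coloured member, and the intervals of the other 9 cross 0, while CRYAB lies at 2.67 and BAG2 at -1.02.

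Levels can be compared between genes only per length, for which the deposited TPM values were used. These values are not scaled to the same total in each library. Their totals were 154763 to 161716 in MC-F7 and 163772 to 164394 in MT-F7, so TPM means below do not compare the groups. Their division by gene length was taken from their name and not compared with annotated lengths. In both groups the order was the same, from HSP90AB1 through HSPA8, HSPE1, HSPB1, HSPA1A, HSP90AA1, HSPD1, HSF1 and DNAJB1 to HSPH1. HSP90AB1 had a mean of 457 ± 69.6 TPM in MC-F7 and 500.4 ± 86.3 TPM in MT-F7 (SD, n = 3), and ranked 41 among all genes by mean TPM. HSPA8 had 111 ± 20.8 and 137 ± 41.3 TPM, and HSPA1A had 51.8 ± 11.4 and 35.9 ± 3.40 TPM. At the low end HSPH1 had 2.37 ± 0.474 and 3.18 ± 0.585 TPM. The ranges of 4 pairs of neighbours overlapped in both groups. Within libraries, HSP90AA1 was above HSPD1 in 6 of 6 despite the overlap, while HSPA8 was above HSPE1 in 4 of 6, HSPE1 above HSPB1 in 5 of 6 and HSPD1 above HSF1 in 4 of 6, and these 3 pairs did not keep 1 order. The other neighbours did not overlap in either group.

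Also, 3 pairs of proteins with related roles were set against each other within each library, where the scaling of the library cancels out. HSPA1A per HSPA8, the inducible against the constitutive HSP70, was 0.504, 0.441 and 0.447 in MC-F7 against 0.237, 0.233 and 0.358 in MT-F7 as a ratio of TPM values. The ratio was lower in each MT-F7 library than in any MC-F7 library, at 0.464 ± 0.0344 against 0.276 ± 0.0710 (SD, n = 3), a log2 difference of -0.77. The exact two-sided permutation test gave p = 0.1, the smallest that 3 against 3 libraries allow (0.3 adjusted over 3 ratios). HSP90AA1 per HSP90AB1, the inducible against the constitutive HSP90, was 0.0549, 0.0583 and 0.0477 in MC-F7 against 0.0548, 0.0497 and 0.0395 in MT-F7, with overlapping groups (log2 difference -0.17, exact permutation p = 0.4, adjusted 0.6). HSPD1 per HSPE1 was 0.136, 0.183 and 0.122 in MC-F7 against 0.206, 0.173 and 0.116 in MT-F7, again with overlapping groups (log2 difference 0.15, exact permutation p = 0.8, adjusted 0.8).

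**Figure D3:**
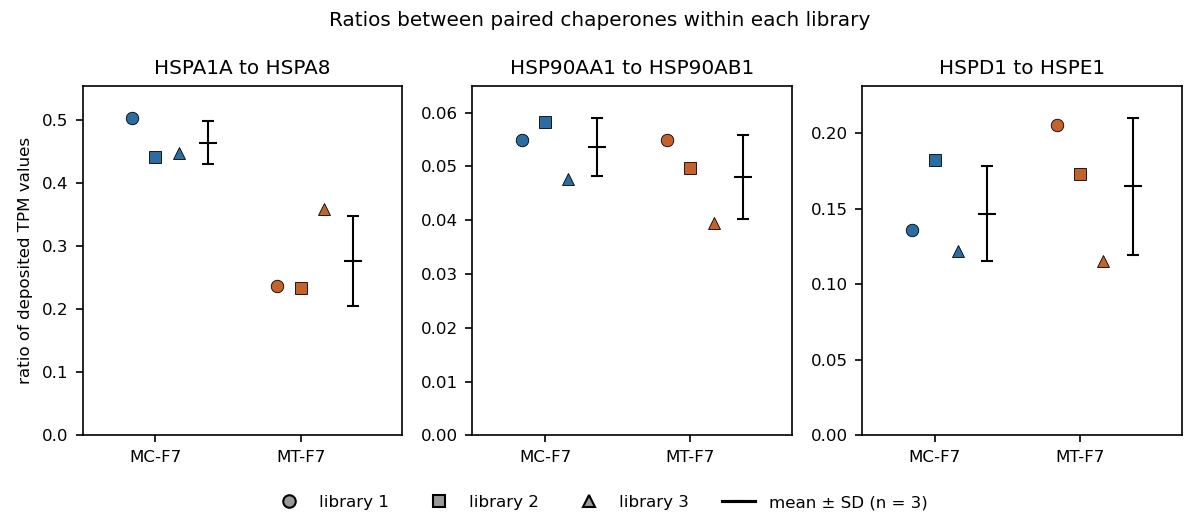
Ratio of deposited TPM values within each library (vertical axes, each from 0) for HSPA1A to HSPA8, HSP90AA1 to HSP90AB1 and HSPD1 to HSPE1, with circles, squares and triangles for libraries 1, 2 and 3 and black marks for the mean ± SD (n = 3). The HSPA1A to HSPA8 ratio spans 0.441 to 0.504 in MC-F7 and 0.233 to 0.358 in MT-F7, and the groups overlap in the other panels.

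Library 3 was the lowest of its group in both groups for 8 of 10 members, against 25.8% of all genes tested, and the highest in both for 0 of 10, against 24.7%. HSPD1 in library 3 was 0.616 times the mean of libraries 1 and 2 in MC-F7 and 0.537 times in MT-F7. For HSP90AA1 these ratios were 0.705 and 0.604, for HSPA8 0.774 and 0.602, and for DNAJB1 0.637 and 0.733. HSPB1 (0.889 and 1.06) and HSF1 (1.03 and 1.18) were the members that did not share the pattern. Over all genes tested the median ratios were 0.983 and 1.00. The 10 members together made up 1.08%, 0.995% and 0.814% of the counts of MC-F7 libraries 1, 2 and 3, and for MT-F7 the shares were 1.01%, 1.08% and 0.761%. These shares are of all counts, mitochondrial genome genes included, so a higher mitochondrial share lowers them. Library 3 also had the highest mitochondrial share in both groups, and the part of that share in the chaperone values was not tested. By list, library 3 was lowest in both groups in 10 of 14 chaperonin and prefoldin genes, 13 of 20 HSF1 targets, 12 of 19 genes of the HSP90 list, 15 of 32 J-domain proteins, 6 of 14 of the HSP70 family, 3 of 8 HSP70 partners, 5 of 15 mitochondrial genes, 1 of 6 small heat shock proteins and 0 of 5 heat shock factors and regulators, and the lists together without the members had it in 46 of 104 (44.2%).

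**Figure D4:**
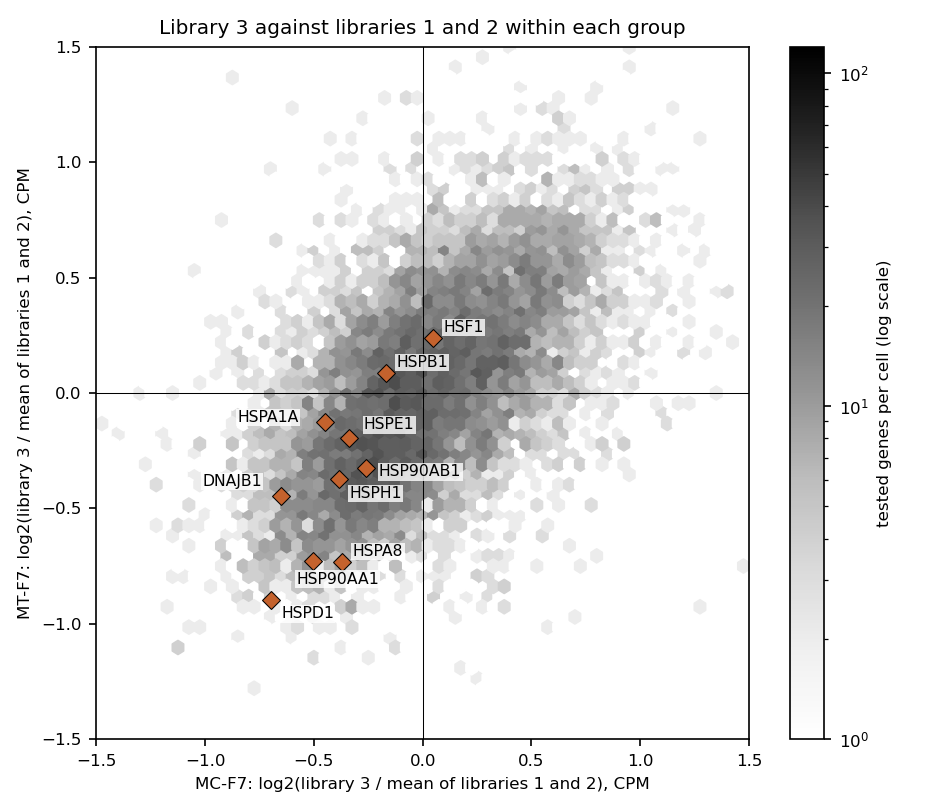
Log2 ratio of the CPM in library 3 to the mean of libraries 1 and 2, in MC-F7 (horizontal axis) and MT-F7 (vertical axis), with all tested genes inside the drawn range as grey cells whose darkness is their number on a log scale, and the 10 members as orange diamonds. The 8 members lie in the lower left part, where library 3 is low in both groups, with HSPD1 the lowest at ratios of 0.616 and 0.537, and HSPB1 and HSF1 lie outside it.

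The wider chaperone network was read from 9 lists by role, also chosen with earlier results of these data known. They held 123 genes, of which 120 were in the count table and 114 were tested. In MT-F7 7 of the 114 were higher and 7 lower, against 11.9% and 11.3% of all genes, and 36 (31.6%) had groups that did not overlap, against 40% of all genes. With both libraries numbered 3 left out, 14 were higher and 18 lower, among them the 14 called in all 6 libraries, against 16.8% and 15.7% of all genes. By list, that fit called 0 higher and 2 lower of the HSP70 family, 0 and 1 of the HSP70 partners, 0 and 4 of the HSP90 list, 3 and 0 of the small heat shock proteins, 1 and 3 of the mitochondrial list, 2 and 0 of the heat shock factors and 2 and 1 of the HSF1 targets. The median log2 fold change of the 114 was -0.043.

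Among small heat shock proteins, 3 of 6 tested genes were higher and 0 lower (11.9% and 11.3% over all genes). The median log2 fold change was 0.64. CRYAB, the crystallin that holds unfolding proteins in lens, heart and muscle, was at 151, 113 and 121 CPM in MC-F7 and at 615, 1114 and 719 CPM in MT-F7. It rose 6.36-fold, with a log2 fold change of 2.67 (SE 0.230, adjusted p = 5.8e-06), and every MT-F7 library was above every MC-F7 library. HSPB2, which lies beside CRYAB with 0 genes between them in the RefSeq annotation and is known as a partner of a muscle kinase, rose from 23.0 ± 2.02 to 73.6 ± 12.5 CPM (log2 fold change 1.68). HSPB8, which works with BAG3 in sending clients to autophagy, rose from 7.05 ± 0.967 to 18.1 ± 4.07 CPM (log2 fold change 1.36, adjusted p = 5.7e-04). HSPB1, the member in this list, had -0.11 and did not pass. Neither did HSPB6 (-0.39) nor IFT25 (-0.074), the gene listed as HSPB11. The list median fell between these values and those of the genes called higher. By unadjusted p under 0.05, 3 genes were higher and 1 was lower (18.2% and 17.6% over all genes). CRYAA, HSPB3, HSPB7 and HSPB9 had too few counts to be tested.

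Of the heat shock factors and their regulators, 2 of 5 tested genes were higher and 0 lower (11.9% and 11.3% over all genes). The median was 0.067. HSF2, a factor that pairs with HSF1 and acts in development, rose from 13.2 ± 0.894 to 29.7 ± 1.68 CPM (log2 fold change 1.17, adjusted p = 1.8e-04). HSBP1, which binds HSF1 trimers and restrains them, rose from 104 ± 3.79 to 164 ± 13.4 CPM (0.66, adjusted p = 0.0049). HSF4 and HSF5 had too few counts to be tested.

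Of 20 tested genes listed as stress-inducible targets of HSF1, 1 was higher and 1 lower (11.9% and 11.3% over all genes). The median was -0.11. The higher gene was CRYAB and the lower gene was HSPA1A, which moved in opposite directions. This list held 8 members, and UBB, a polyubiquitin gene and the most counted of the others, had a log2 fold change of 0.25 (adjusted p = 0.45).

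In the HSP70 and HSP110 family 0 of 14 genes were higher and HSPA1A was the 1 lower (11.9% and 11.3% over all genes). The median was -0.011. By unadjusted p under 0.05, 0 were higher and 4 lower of the 14 (18.2% and 17.6% over all genes), and DESeq2 called 0 higher and 2 lower (13.4% and 12.7%). HSPA5, the HSP70 of the endoplasmic reticulum, was at 482, 467 and 324 CPM in MC-F7 and at 603, 522 and 397 CPM in MT-F7 (log2 fold change 0.26, adjusted p = 0.388). HSP90B1, the HSP90 of the same compartment, had a log2 fold change of 0.32 (adjusted p = 0.223), so neither of these endoplasmic reticulum chaperones passed. HSPA9, the mitochondrial HSP70, had -0.21 (adjusted p = 0.40).

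Among J-domain proteins 2 of 32 genes were higher and 1 was lower (11.9% and 11.3% over all genes), with a median of 0.031. With both libraries numbered 3 left out 6 were higher and 5 lower (16.8% and 15.7% over all genes), by unadjusted p 6 and 3 (18.2% and 17.6%), and by DESeq2 3 and 2 (13.4% and 12.7%). DNAJC1, a membrane protein of the endoplasmic reticulum, rose from 38.1 ± 4.59 to 119.5 ± 12.3 CPM (log2 fold change 1.65). DNAJC9, which also chaperones histones, rose from 11.2 ± 0.903 to 19.6 ± 2.44 CPM (0.81, adjusted p = 0.0046). DNAJA2, a cytosolic partner in refolding, fell from 71.6 ± 2.71 to 49.0 ± 6.75 CPM (-0.55, adjusted p = 0.021), a call held in 4 of 6 fits with 1 library left out (adjusted p up to 0.068) and in 0 of 4 limma fits on TPM values (0.086 to 0.122). Of 8 tested HSP70 partners 1 was lower and 0 were higher (11.3% and 11.9% over all genes), with a median of -0.056. That gene was BAG2, an exchange factor that also inhibits the ubiquitin ligase STUB1, which fell from 65.8 ± 4.82 to 32.4 ± 0.855 CPM (-1.02, adjusted p = 2.7e-04).

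Of 19 genes of the HSP90 family and its co-chaperones 3 were lower and 0 higher (11.3% and 11.9% over all genes). The median was -0.091, and neither HSP90AA1 nor HSP90AB1 was among the 3. CDC37L1, a relative of the kinase co-chaperone CDC37, fell from 27.7 ± 1.12 to 15.8 ± 2.51 CPM (log2 fold change -0.81, adjusted p = 0.0039). TRAP1, the HSP90 of mitochondria, fell from 95.2 ± 6.69 to 61.4 ± 1.36 CPM (-0.63, adjusted p = 0.0058). NUDC, a co-chaperone that also binds dynein, was the third, named to complete the count after its values were seen, and fell from 550.3 ± 39.3 to 398 ± 8.14 CPM (-0.47, adjusted p = 0.035), a call held in 2 of 6 fits with 1 library left out (adjusted p up to 0.121) and in 0 of 4 limma fits on TPM values (0.088 to 0.203).

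Of 15 genes of the mitochondrial list 2 were lower and 0 higher (11.3% and 11.9% over all genes), with a median of -0.23. LONP1, the protease that degrades damaged matrix proteins, fell from 277 ± 24.0 to 137 ± 5.75 CPM (log2 fold change -1.01, adjusted p = 3.0e-04), and TRAP1 was the other. HSPD1 and HSPE1 belong to this list and did not pass. In the cytosolic chaperonin and prefoldin list, which folds actin and tubulin, 0 of 14 genes were called (23.2% over all genes). The median was -0.076. Log2 fold changes of the chaperonin subunits were -0.45 (TCP1), -0.41 (CCT4), -0.35 (CCT8), -0.34 (CCT5), -0.29 (CCT2), -0.073 (CCT3), 0.038 (CCT7) and 0.11 (CCT6A). With both libraries numbered 3 left out, TCP1 and CCT4 were called lower and no subunit higher. By unadjusted p under 0.05 this list had 1 higher and 2 lower genes (18.2% and 17.6% over all genes), DESeq2 called 1 higher and 1 lower (13.4% and 12.7%), and with both libraries numbered 3 left out edgeR called 1 higher and 4 lower (16.8% and 15.7%). The most counted genes of 4 lists outside the members did not pass in this fit: CCT7, a chaperonin subunit, had a log2 fold change of 0.038 (-0.032 without both libraries numbered 3), BAG6 had -0.15, DNAJC2, a J-domain protein of the ribosome, had -0.36, and FKBP4, an HSP90 co-chaperone, had -0.26.

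**Figure D5:**
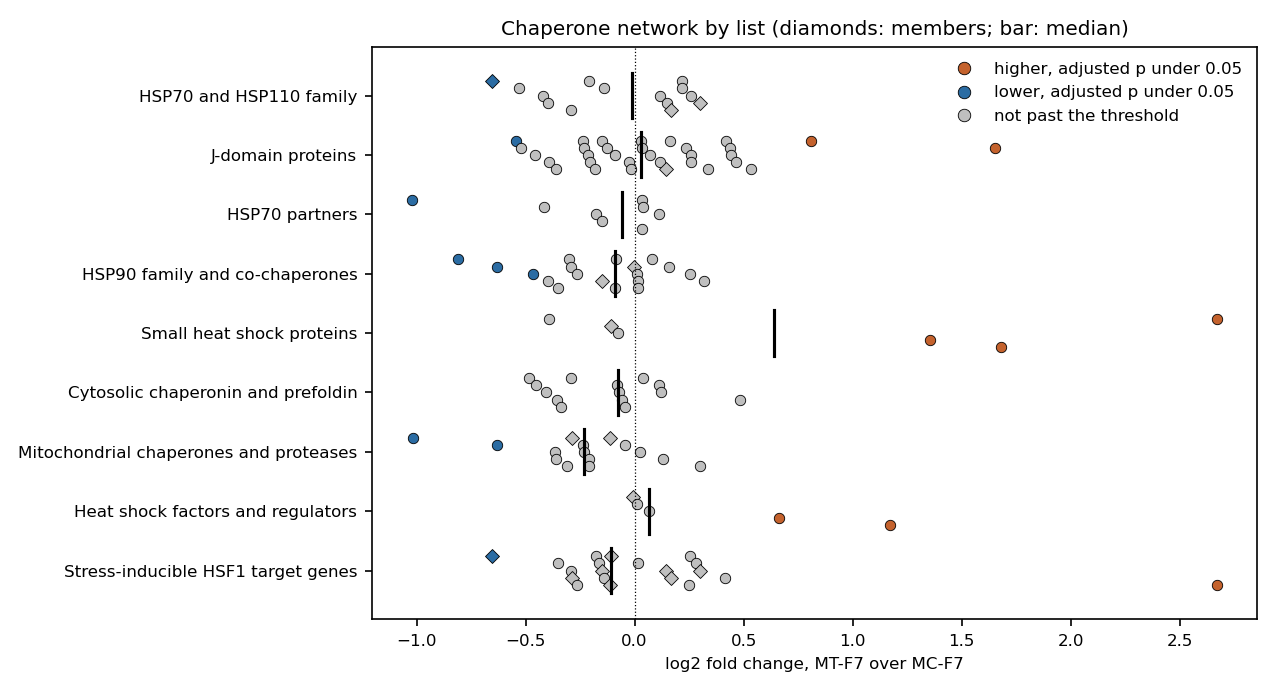
Log2 fold change of MT-F7 over MC-F7 (horizontal axis, log2 scale) for each tested gene of the 9 chaperone lists (rows, where a gene may be in more than 1), with members as diamonds, a black bar at the list median and colours by the edgeR quasi-likelihood test at an adjusted p under 0.05. The small heat shock proteins have the highest median, 0.64, with CRYAB at 2.67, and HSPA1A at -0.66 is the 1 coloured diamond.

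The genes whose levels followed a member most closely were looked up by Pearson's r of log2 CPM over the 6 libraries among 12917 genes, as a description of 6 points in 2 groups. For HSPA1A they were RBP4, a retinol carrier (r = 0.999), ZNF668 (0.998) and IFI30, a lysosomal thiol reductase (0.996). RBP4 was at 631, 543 and 438 CPM in MC-F7 and at 376, 345 and 340.1 CPM in MT-F7. It shared the order of the HSPA1A values, as a gene picked for the highest r of 12917 would. For HSP90AA1 they were MDH1, the cytosolic malate dehydrogenase (r = 0.997), LANCL1 (0.996) and TMEM170A (0.996), and MDH1 was lowest in library 3, at 141 CPM in MC-F7 and 101 CPM in MT-F7. For DNAJB1 they were TFG (0.991), SEC22B (0.989) and TLCD3A (0.989).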

How the data were processed

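RNA-seq of 3 MC-F7 and 3 MT-F7 libraries was used. The authors aligned reads with HISAT2 2.0.5 and counted them with featureCounts 1.5.0-p3, and deposited raw counts per Entrez gene. The genome build, strand setting and treatment of reads matching several genes are not given in the sources used here. Processed copies of HSPA8, HSP90AB1, HSPD1 and HSPE1 are common in mammals, so their counts are uncertain to that extent. The authors also deposited TPM values, which for each gene are a fixed multiple of the count and are not scaled to 1000000 per library.

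The 10 genes and the lists were chosen with earlier results of these data known. Symbols came from RefSeq (19074 of 19163 identifiers matched). Genes passing filterByExpr (minimum count 10, total 15) were fitted in edgeR 4.0.16 under R 4.3.3 with TMM and the quasi-likelihood test, two-sided, without a block, adjusted by Benjamini-Hochberg over 13001 genes at 0.05. The fits were also run on simulated counts with known changes. Those counts had the same spread setting for every gene and no library 3 effect, so they do not test that effect. A floor of 3 counts was set for detection, for counting error only. Named genes were the members, the 2 highest and 2 lowest called genes and the most counted gene of each list, HSPA5, HSP90B1 and the 3 closest genes to each of 3 members. HSPB8 and NUDC were added after their values were seen, to complete counts of 3. Ratios were tested by exact permutation.

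Alternatives were DESeq2 1.42.0, edgeR's likelihood ratio test, other scalings and filters, limma 3.58.1 on log2(TPM + 1) and log2(TPM + 0.1), the replicate number as a block and each library left out. Leaving out both libraries numbered 3 was chosen after seeing the data.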

Additional observations from a re-analysis of the deposited data

How the results depend on the processing

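HSPA1A was lower in MT-F7 under every alternative run, with log2 fold changes of -0.79 to -0.50, and passed in 3 of 6 fits with 1 library left out and in 9 of 13 others. The members called lower were 1, and 0 in all 4 fits of limma on TPM values, in which HSPA1A had adjusted p of 0.091 to 0.14. With 1 library left out the members called lower were 0 to 1. Of the network genes, 7 were higher and 7 lower. With 1 library left out these were 7 to 11 and 4 to 12. The likelihood ratio test called 11 lower, limma on TPM values called 4 lower in each of its 4 fits, and leaving out both libraries numbered 3 gave 14 higher and 18 lower.

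The replicate numbers were not taken to pair the samples. Deviations from the group means of same-numbered libraries correlated at 0.134, 0.0445 and 0.417, and library 1 of MC-F7 was closer to library 2 of MT-F7 (0.279). With the replicate number as a block, network genes called were 13 higher and 22 lower, and all genes called were 2373 higher and 2301 lower, against 1553 and 1463 without it. DNAJC2 passed with the block (log2 fold change -0.38, adjusted p = 0.031). Limma on TPM values called 451 to 960 of all genes lower, and 948 higher with a mean TPM of at least 1. Without MC-F7 library 2, 1019 were higher and 895 lower.

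Members near 0 changed sign, none past the threshold, and the cause was not tested. In each set of limma values below, the third came from TPM values rescaled to 1000000 per library. The others came from values as deposited, with library totals of 154763 to 161716 in MC-F7 and 163772 to 164394 in MT-F7. HSP90AB1 was at 0.017 by library size only, 0.0032 and 0.0015 under the filters of at least 1 count and of at least 10 counts, 0.035 without both libraries numbered 3 and 0.13, 0.13, 0.078 and 0.13 under limma. HSF1 was at 0.0082 by library size only and 0.11, 0.12, 0.069 and 0.11 under limma. Under limma HSPB1 was at 0.032, 0.032, -0.018 and 0.032, and HSPD1 at 0.00067, -0.00069, -0.050 and 0.00067, so some of these fits kept the sign. CCT7 was at -0.032 without both libraries numbered 3. With 1 library left out, the ranges crossing 0 were -0.30 to 0.047 for HSP90AA1, -0.087 to 0.10 for HSP90AB1, -0.22 to 0.071 for HSPB1, -0.31 to 0.12 for HSPD1, -0.048 to 0.27 for DNAJB1, -0.097 to 0.067 for HSF1 and -0.048 to 0.13 for CCT7. The HSPD1 to HSPE1 ratio difference was -0.031 without MT-F7 library 1, and 0.026 to 0.38 without another. Each member had 728 counts or more in each library.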
